A study of Mus musculus with 2 samples.

Results

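Keratins, desmosome proteins and the proteins of the cornified envelope form the mechanical scaffold of epithelia, and their genes were examined in the injured colon of mice that lack epithelial HIF-2α. The members were the probe sets of the expression array whose gene symbol was Krt, Tgm, Dsg or Dsc followed by a number, began with Sprr, or was Dsp, Jup, Pkp1, Pkp2, Pkp3, Ppl, Evpl, Ivl, Lor or Trp63. This rule found 122 of 45101 probe sets. Of these, 118 carried 1 symbol and stood for 79 of 18193 genes, and 4 carried several symbols of the same families and were assigned to no gene. Colon mucosal scrapings had been taken from C57BL/6 mice that received 3% dextran sulfate sodium (DSS), which damages the lining of the colon, for 3 days. The ΔIE group was Hif-2αΔIE mice, in which the conditional gene of HIF-2α, Epas1, is deleted; ΔIE is read here as intestinal epithelium, from knowledge of the model, since the labels do not spell it out. Its controls were Hif-2αF/F mice, which carry the conditional alleles undeleted. The mice of both groups were 6 to 8 weeks old by the sample labels, and 7 weeks old by the design text, which counts 5 ΔIE and 6 F/F mice. The sources used here give neither the promoter that drives the recombinase nor whether RNA was pooled.

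The data hold 1 array per genotype, so no test, standard error or p-value could be given, and each difference below compares a single pair of arrays. Values are on the log2 scale of RMA, a method that corrects background, sets the distributions of arrays equal and summarises each probe set. A difference is always ΔIE minus F/F. The brightest probe set stood for its gene, and genes stayed in if at least 1 array reached 6.11, the median of all probe set means. This kept 11899 genes in all and 46 of the 79 member genes; the other 33 read between 2.66 and 5.82 on the ΔIE array and between 2.74 and 5.81 on the F/F array. The members nearest the filter were Lor, which passed at 6.16 on the ΔIE array against 5.56 on the F/F array, and Krt33b, which did not pass at 5.82 on the ΔIE array against 5.47 on the F/F array. The 4 control probe sets for Cre recombinase read 7.86 to 10.01 on the ΔIE array and 2.92 to 4.22 on the F/F array, in the direction of the genotype labels. Epas1 differed by -0.13 in its brighter probe set and 0.16 in its dimmer one; whether these probe sets lie in the deleted exons was not examined. Over all genes kept, the median difference was 0.019 and the quartiles were -0.18 and 0.19.

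Keratins are intermediate filament proteins that assemble only as pairs of a type II and a type I chain, and the pair an epithelium makes tells what kind of epithelium it is. Simple epithelium, such as the single cell layer that lines the colon, makes keratins 8, 18, 19 and 20, whereas stratified squamous epithelium, which meets the colon at the anal canal, makes keratins 5 and 14 in its basal layer and other pairs above it. Desmosomes anchor these filaments at cell contacts. In squamous cells that finish differentiation, transglutaminases crosslink precursors such as loricrin, involucrin and the small proline-rich (SPRR) proteins into a cornified envelope under the membrane.

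Squamous genes were lower on the ΔIE array and simple epithelial genes were close to equal on both. Of 37 squamous member genes on the array 24 were kept. Of these 23 were lower, 17 by 2-fold or more, and the median difference was -1.28. Of 8 simple epithelial members kept, 3 were lower and 5 higher, none at least 2-fold, and their median was 0.067. The medians of the squamous and simple members thus lay -1.35 apart on the log2 scale. Among all genes kept, 46.5% were lower by any amount, 5.30% at least 2-fold lower and 1.15% at least 2-fold higher. All 17 member genes at 2-fold were of the squamous class and lower, and none of the 46 was 2-fold higher. The classes were assigned here with earlier results of these data known. Among the 17 were 3 SPRR genes, a family of which gut epithelium also makes some members, so the class does not give the source of the RNA. Of the 22 kept members outside the squamous class, the lowest was Krt23 at -0.95. The filter took the higher of both arrays, so a member could pass through its F/F value alone. When both arrays had to pass, 43 members were left and 16 were at least 2-fold lower; Krt1 was the member lost from the 17. In bulk tissue, fewer cells of a type and less RNA per cell cannot be told apart.

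**Figure D1:**
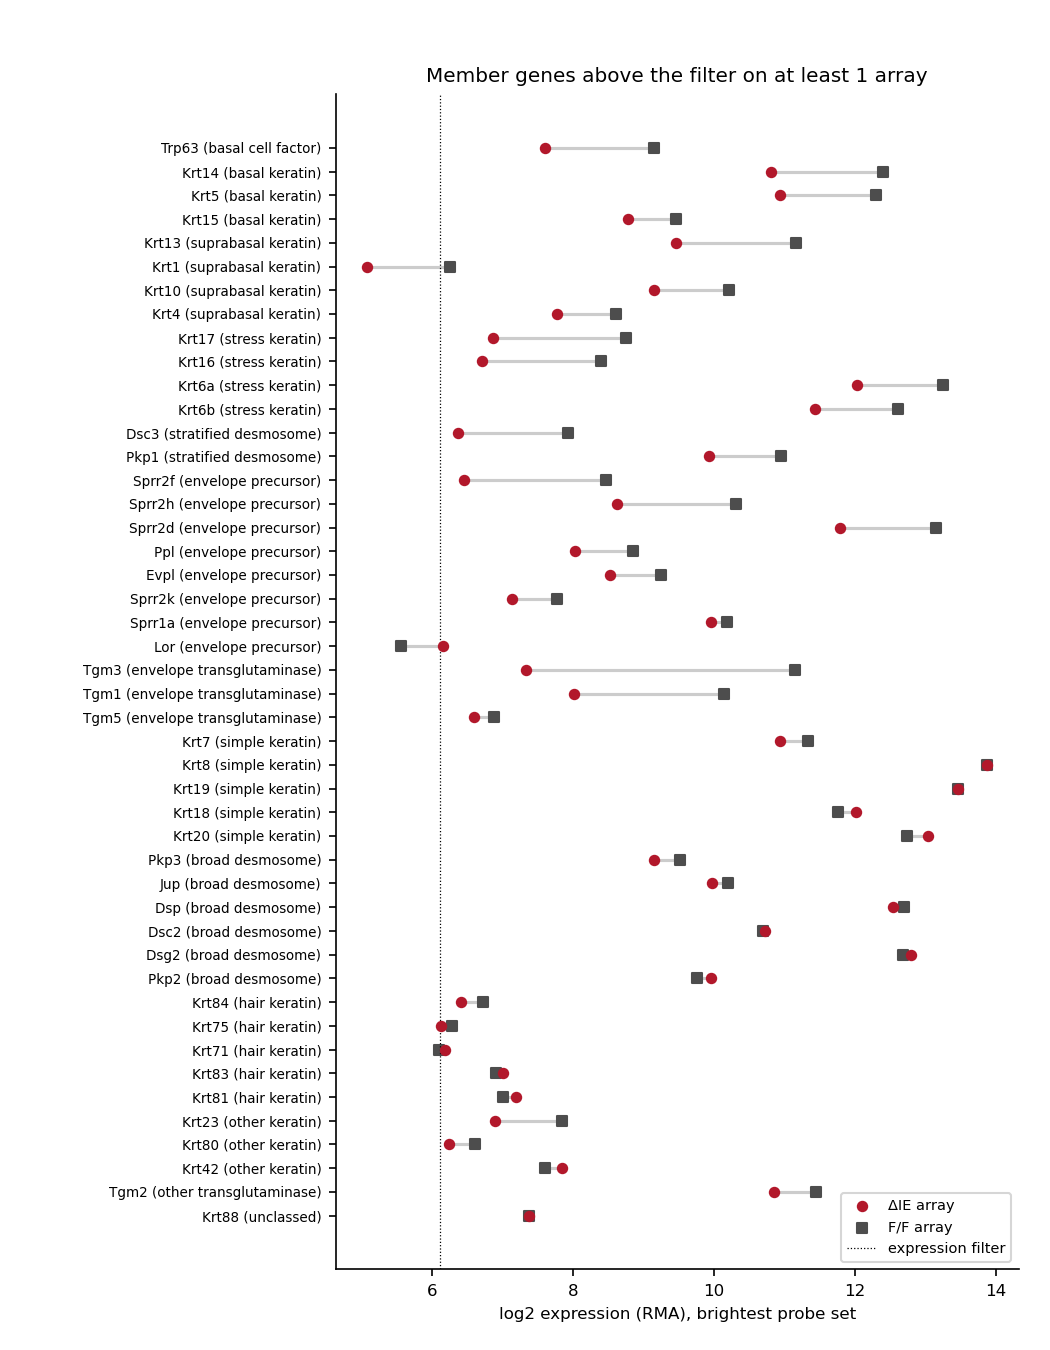
Log2 expression (RMA, x axis) of the 46 member genes kept, with 1 row per gene; red circles are the ΔIE array, grey squares the F/F array, and the dotted line is the filter at 6.11. Red circles lie to the left of the squares in the squamous classes at the top, except for Lor, and near them in the simple keratins and broad desmosome genes.

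Trp63 encodes p63, the transcription factor of the basal cells of stratified epithelia. It read 7.61 on the ΔIE array and 9.16 on the F/F array, 2.93-fold lower. A second Trp63 probe set passed only through its F/F value, at 5.99 on the ΔIE array and 7.01 on the F/F array. The remaining 2 Trp63 probe sets were below the filter on both arrays, and averaged over all 4 the difference was -0.72 in place of -1.55.

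Both chains of the basal keratin pair were at least 2-fold lower. Krt5, the type II chain, read 10.94 on the ΔIE array and 12.30 on the F/F array, which is 2.56-fold lower. Krt14, its type I partner, read 10.81 on the ΔIE array and 12.40 on the F/F array, 3.01-fold lower. This Krt14 probe set ends in _x_at and can match other transcripts. Another bright Krt14 probe set differed by -1.86, further from Krt5 at -1.36, so Krt14 was lower in both that passed. Krt15, a further type I chain of basal cells and of hair follicle stem cells, differed less, with 8.78 on the ΔIE array and 9.47 on the F/F array (-0.68).

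Suprabasal keratins were lower whether they belong to wet mucosa or to dry epidermis. Krt13, which is made in the upper layers of mucosa such as oesophagus and tongue, read 9.47 on the ΔIE array and 11.17 on the F/F array, 3.27-fold lower. Its 3 probe sets lay between -1.71 and -1.59, but those other than the brightest end in _x_at and can match other transcripts. The dimmest passed only through its F/F value, at 5.51 on the ΔIE array and 7.10 on the F/F array. Krt4, the partner of Krt13, read 7.78 on the ΔIE array and 8.61 on the F/F array, a smaller difference of -0.83. The other Krt4 probe set differed by -1.09. Of the epidermal pair, Krt10 read 9.16 on the ΔIE array and 10.21 on the F/F array, 2.08-fold lower. Krt1 read 5.08 on the ΔIE array, below the filter, and 6.25 on the F/F array, barely above it, so no fold is given. The 5 other suprabasal keratins on the array, Krt2, Krt76, Krt77, Krt78 and Krt79, were below the filter on both. The suprabasal keratin signal that could be measured thus came from Krt4, Krt13, Krt10 and, on the F/F array only, Krt1.

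The keratins that squamous epithelium makes under stress and in wounds were all at least 2-fold lower, 4 of 4, with a median of -1.45. Krt6a and Krt6b, near-identical type II chains, read 12.04 and 11.44 on the ΔIE array, against 13.25 and 12.62 on the F/F array. The 3 probe sets of Krt6a differed by -1.58 to -1.21; near-identical copies can share probes, so the values of Krt6a and Krt6b may not be independent. Krt16, a type I partner of keratin 6, read 6.71 on the ΔIE array and 8.40 on the F/F array, 3.24-fold lower. Krt17, the other one, read 6.87 on the ΔIE array and 8.75 on the F/F array, 3.68-fold lower, the lowest of the keratins by its brightest probe set. Its second probe set was below the filter on both arrays and differed by -0.045, so that the average over both was -0.96.

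Squamous partners could be set side by side in 4 pairs with both chains above the filter on both arrays, and both chains of each were lower. By the brightest probe set the type I chain was the lower one in 4 of 4, and with each gene's probe sets averaged in 3 of 4. The order of Krt6b and Krt17 turned, at -1.18 for Krt6b and -1.88 for Krt17 by the brightest probe set and -1.18 and -0.96 by the average. Krt6a and Krt16 differed by -1.21 and -1.69 by the brightest probe set and by -1.41 and -1.69 by the average. For Krt6b and Krt17, which chain was lower thus depended on whether the second Krt17 probe set, below the filter on both arrays, was counted. Krt4 and Krt13 lay furthest apart by the brightest probe set, at -0.83 and -1.71. As a measure of how far probe sets of 1 gene lie apart, 5110 genes of the whole array had a second probe set past the filter, and in 95% of them the 2 brightest probe sets lay within 0.41 of each other. This compares probe sets within a pair of arrays and says nothing of the spread between mice. Krt5 and Krt14 lay 0.23 apart by the brightest probe set and 0.093 by the average, both within 0.41. That average includes a Krt14 probe set below the filter on both arrays, and the brightest Krt14 probe set can match other transcripts. By the other bright Krt14 probe set, at -1.86 against -1.36 for Krt5, the pair lay further apart than 0.41. By the average Krt6a and Krt16 (0.29) and Krt6b and Krt17 (0.22) also lay within 0.41, and only Krt4 and Krt13 (0.69) lay further apart. Where the gap is within 0.41, the order of the chains is not settled. Among the 13 member genes with a second probe set past the filter, the largest gap was 0.91, so a gap past 0.41 does not settle it either.

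**Figure D2:**
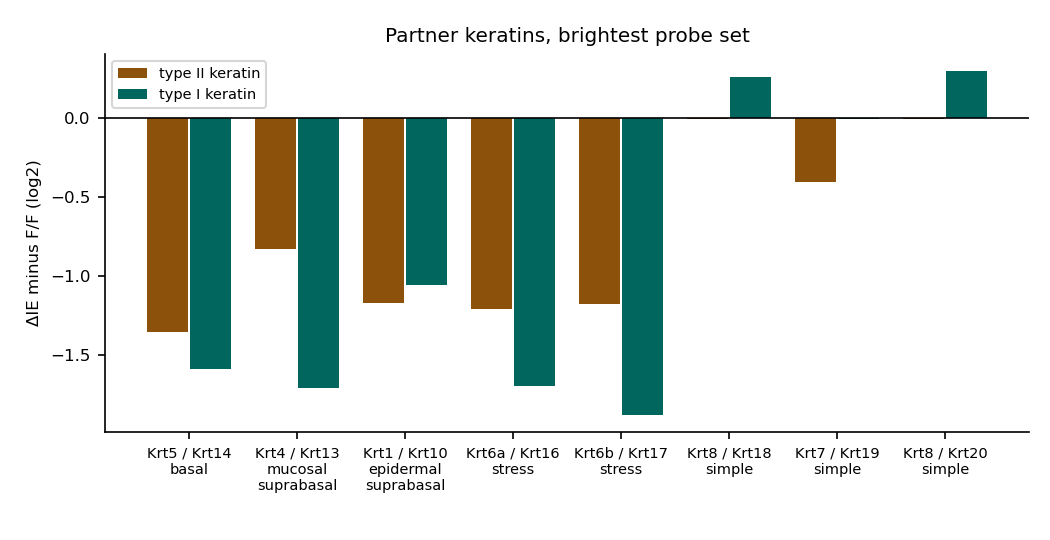
Difference between the arrays (ΔIE minus F/F, log2, y axis) for type II keratins (brown) and their type I partners (green), brightest probe set, no replicates. The squamous pairs at the left run from -0.83 to -1.88, with Krt1 below the filter on the ΔIE array, and the simple pairs at the right from -0.40 to 0.30.

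The simple keratins, which fill the colonocytes, were close to equal. Krt8 read 13.88 on both arrays, and its 3 probe sets differed by -0.0071 to 0.067. Krt18, its partner, read 12.02 on the ΔIE array and 11.76 on the F/F array. Krt19 read 13.46 on both arrays. Krt20, a keratin of differentiated surface cells of the gut, read 13.04 on the ΔIE array and 12.74 on the F/F array, a difference of 0.30. Krt7, a keratin of ducts and of some other simple and transitional epithelia, was the lowest of the class, at 10.94 on the ΔIE array and 11.34 on the F/F array (-0.40). None of the 5 reached 1.5-fold. The highest values of any probe set were 14.48 on the ΔIE array and 14.43 on the F/F array. Whether the brightest simple keratins, such as Krt8 and Krt19, were at the top of their range was not measured.

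Desmosomal genes divided along the same line. The desmosome joins cells through the cadherins desmoglein and desmocollin, whose tails bind plakoglobin and plakophilins, which in turn bind desmoplakin and the keratins. Dsg2 and Dsc2, the cadherins of simple epithelium, differed by 0.11 and 0.023, and all 6 Dsg2 probe sets lay between 0.088 and 0.41. Pkp2, the plakophilin of simple epithelium and heart, differed by 0.20. Dsp (desmoplakin), Jup (plakoglobin) and Pkp3, which both kinds of epithelium use, differed by -0.16, -0.23 and -0.36. The 3 Dsp probe sets ran from -0.32 to 0.18, so they did not share a direction. The higher one read 6.19 on the ΔIE array and 6.00, below the filter, on the F/F array. The bright ones were both lower, by -0.32 and -0.16. The 6 broad desmosome genes had a median of -0.069, none at 2-fold.

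The desmosomal genes of stratified epithelium were lower where they could be measured. Pkp1, the plakophilin of stratified epithelium, read 9.93 on the ΔIE array and 10.95 on the F/F array, 2.03-fold lower, just past the threshold. Dsc3, the basal layer desmocollin, read 6.37 on the ΔIE array and 7.93 on the F/F array, 2.96-fold lower. The second Dsc3 probe set was below the filter on both arrays and differed by -0.11, and the average over both was -0.84. Dsc1, Dsg1a and Dsg1b, cadherins of the upper layers of epidermis, were below the filter on both arrays. Dsg3, Dsg4 and Dsg1c were not analysed here.

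**Figure D3:**
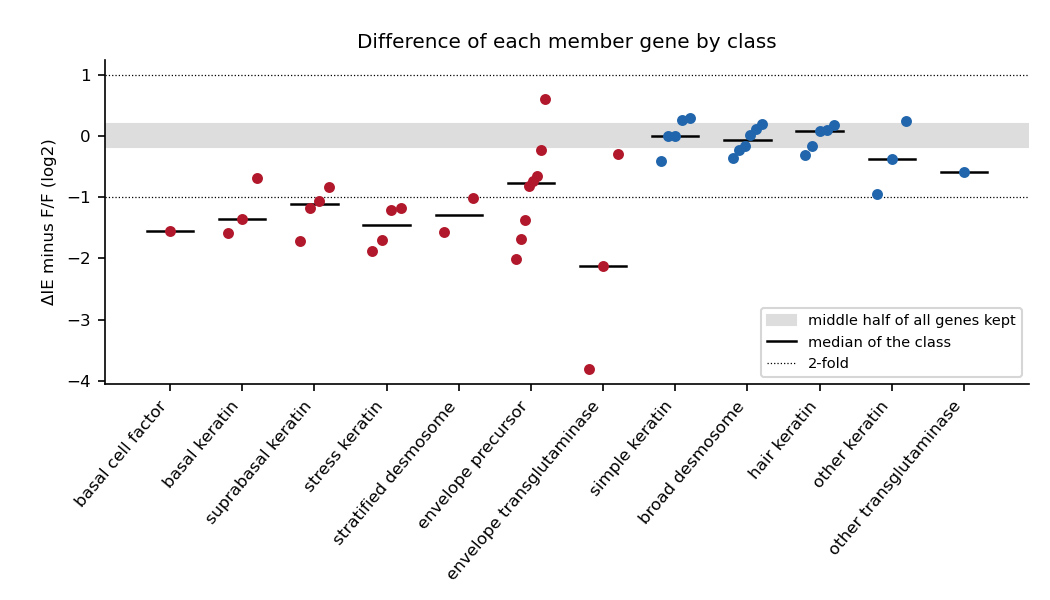
Difference of each member gene kept (ΔIE minus F/F, log2, y axis) by class, with squamous classes in red and the others in blue; the envelope precursors include Ppl, which both kinds of epithelium use, and Krt88, which belongs to no class, is left out. Black bars are class medians, the grey band runs between the quartiles of all genes kept (-0.18 and 0.19), and dotted lines mark 2-fold; the medians of the 7 squamous classes lie between -2.13 and -0.77.

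Envelope precursors, counted together with Ppl, which both kinds of epithelium use, included genes in both directions. Of 13 on the array 8 were kept, 7 lower and 3 past 2-fold, and their median was -0.77. The SPRR genes are small, proline-rich transglutaminase substrates encoded side by side in the epidermal differentiation complex, and some are also made by gut epithelium. Sprr2f read 6.46 on the ΔIE array and 8.48 on the F/F array, 4.03-fold lower. Sprr2h read 8.63 on the ΔIE array and 10.32 on the F/F array, 3.22-fold lower, by a probe set that can match several transcripts. Sprr2d read 11.79 on the ΔIE array and 13.16 on the F/F array, 2.58-fold lower. Neighbouring genes differed less: Sprr2k by -0.65, and Sprr1a, at 9.96 on the ΔIE array and 10.19 on the F/F array, by -0.24. Sprr1b, Sprr2i, Sprr2j-ps and Sprr3 were below the filter.

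A further 3 probe sets were annotated to 2 or 3 of the Sprr2a copies at once and so to no single gene. They read 9.98, 13.91 and 14.33 on the ΔIE array, against 10.59, 13.98 and 14.43 on the F/F array. Their differences were -0.61, -0.070 and -0.093. The value of 14.43 was the highest on the F/F array, and whether the 2 brighter probe sets were at the top of their range was not measured. The remaining probe set with several symbols, shared by Krt17 and Krt14, read 4.90 on the ΔIE array and 4.83 on the F/F array, below the filter.

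The promoters of these genes are shown because members of the same gene cluster lay far apart in their differences. Each window holds 250 bases before and 50 after the RefSeq start in GRCm38.p6, written 5′ to 3′ on the gene's strand. Capitals mark TGAGTCA, the consensus of AP-1, and ATTTGCAT, the octamer of POU factors, each searched on both strands; the motifs do not overlap here. The first 3 are the genes at least 2-fold lower, Sprr2d (chr3:92338890-92339189, + strand), Sprr2f (chr3:92364937-92365236, + strand) and Sprr2h (chr3:92385435-92385734, + strand), and the last are Sprr2a1 (chr3:92215585-92215884, + strand) and Sprr1a (chr3:92485832-92486131, - strand).
Sprr2d: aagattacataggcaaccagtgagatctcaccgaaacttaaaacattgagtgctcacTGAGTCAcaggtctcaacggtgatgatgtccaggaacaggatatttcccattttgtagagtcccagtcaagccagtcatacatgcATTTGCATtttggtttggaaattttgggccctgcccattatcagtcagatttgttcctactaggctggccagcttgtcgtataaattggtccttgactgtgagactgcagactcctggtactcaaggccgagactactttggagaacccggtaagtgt
Sprr2f: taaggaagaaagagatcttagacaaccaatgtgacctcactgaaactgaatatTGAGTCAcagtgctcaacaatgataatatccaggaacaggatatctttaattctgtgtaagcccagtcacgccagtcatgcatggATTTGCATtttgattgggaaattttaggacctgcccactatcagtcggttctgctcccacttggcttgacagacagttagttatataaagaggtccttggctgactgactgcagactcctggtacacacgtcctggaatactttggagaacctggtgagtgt
Sprr2h: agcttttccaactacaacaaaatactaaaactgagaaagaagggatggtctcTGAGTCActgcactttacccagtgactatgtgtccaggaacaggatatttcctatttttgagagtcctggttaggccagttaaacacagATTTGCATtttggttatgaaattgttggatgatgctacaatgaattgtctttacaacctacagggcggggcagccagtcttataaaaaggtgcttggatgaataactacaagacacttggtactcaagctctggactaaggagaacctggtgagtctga
Sprr2a1: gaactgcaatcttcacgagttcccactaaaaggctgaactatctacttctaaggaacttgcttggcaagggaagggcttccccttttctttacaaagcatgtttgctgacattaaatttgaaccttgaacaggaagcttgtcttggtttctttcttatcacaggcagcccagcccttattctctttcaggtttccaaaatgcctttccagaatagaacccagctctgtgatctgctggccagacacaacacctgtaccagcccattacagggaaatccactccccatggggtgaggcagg
Sprr1a: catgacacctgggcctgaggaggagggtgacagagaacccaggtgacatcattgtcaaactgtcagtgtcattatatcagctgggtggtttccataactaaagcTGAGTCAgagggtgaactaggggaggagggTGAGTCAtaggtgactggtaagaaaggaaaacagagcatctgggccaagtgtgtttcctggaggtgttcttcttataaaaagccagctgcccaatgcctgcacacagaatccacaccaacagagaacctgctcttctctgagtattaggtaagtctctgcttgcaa
TGAGTCA began at -193, -197 and -198 from the start in Sprr2d, Sprr2f and Sprr2h, and ATTTGCAT at -108, -112 and -109. The Sprr2a1 window holds neither, and Sprr1a holds TGAGTCA at -146 and -116. The windows of Sprr2a1 and Sprr2a2 were identical in 300 of 300 bases. Over the 10 Sprr2 windows, 7 held both motifs, and these 7 included Sprr2k, under 2-fold, and Sprr2i, below the filter. The TATA motif TATAAA was also searched and is not in capitals. It was in the same 7 Sprr2 windows, against 13.6% of all windows, and in none of Sprr2a1, Sprr2a2 and Sprr2a3. Whether the RefSeq starts of these Sprr2a copies mark promoters comparable to the others was not examined. Of 32851 windows of all genes, 5.20% held TGAGTCA and 1.74% held ATTTGCAT. Of 63 windows of 60 genes under the rule, 11 held TGAGTCA and 7 held ATTTGCAT. A window was found for 9 of the 17 genes at least 2-fold lower. A match of letters is a description of the window and not evidence of binding.

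Outside the SPRR family, no envelope precursor gene kept reached 2-fold; Evpl and Ppl were lower and Lor was higher. Evpl (envoplakin) read 8.53 on the ΔIE array and 9.26 on the F/F array (-0.73). Ppl (periplakin), its partner in linking keratins to the envelope, read 8.04 on the ΔIE array and 8.85 on the F/F array (-0.81). Ivl (involucrin) was below the filter in both of its probe sets. Lor (loricrin), the main protein of the epidermal envelope, was the only squamous member kept that was higher, at 0.60. Its other 2 probe sets were below the filter on both arrays, so its direction rests on a value barely above the filter.

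The transglutaminases that crosslink the envelope held the lowest members. Tgm3, the epidermal transglutaminase, read 7.34 on the ΔIE array and 11.15 on the F/F array, a difference of -3.81, rank 2 from the lowest of the 11899 genes kept. Its other probe set read 6.60 on the ΔIE array and 9.50 on the F/F array (-2.90). Both Tgm3 probe sets were thus lower than any other member, and they differed between themselves by 0.91. Tgm1, the membrane-bound keratinocyte enzyme, read 8.01 on the ΔIE array and 10.14 on the F/F array, 4.37-fold lower, rank 35. Tgm5, the third enzyme of the envelope, read 6.60 on the ΔIE array and 6.89 on the F/F array (-0.29). Tgm2, the tissue transglutaminase that many cell types make, was lower by 1.51-fold, and its 5 probe sets above the filter lay between -0.76 and -0.55. Without the transglutaminases, the 15 other members at 2-fold ran from -2.01 to -1.02, so Tgm3 lay outside the range of the other squamous genes.

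**Figure D4:**
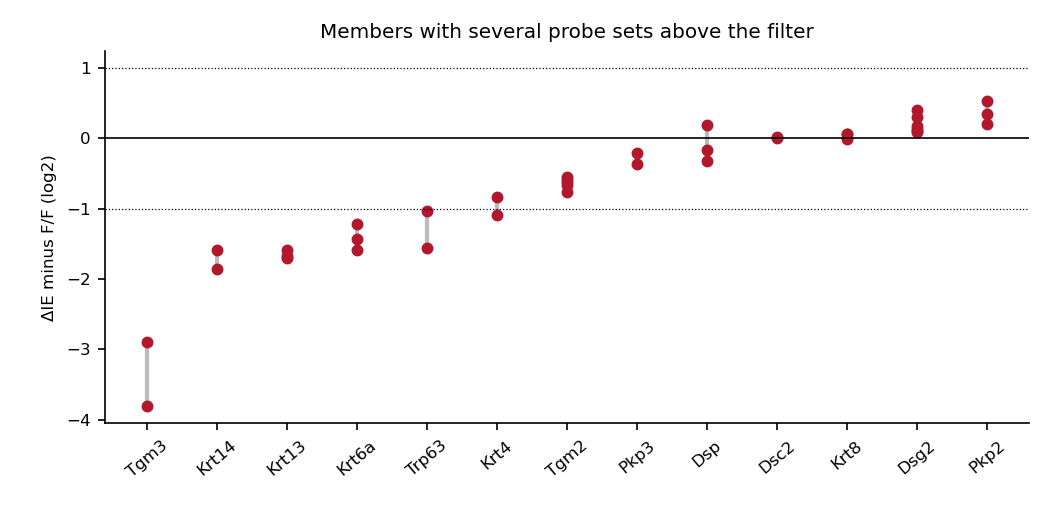
Difference (ΔIE minus F/F, log2, y axis) of each probe set above the filter for the 13 member genes with more than 1; points are probe sets of the same pair of arrays and grey lines join them. Genes with several probe sets ran the same way in 11 of 13 cases. Dsp, from -0.32 to 0.18, and Krt8, from -0.0071 to 0.067, held both signs. The Dsp probe set at 0.18 was below the filter on the F/F array.

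Keratins of hair and nail were mostly out of range. Of 20 on the array 5 were kept, Krt71, Krt75, Krt81, Krt83 and Krt84, and they differed by -0.31 to 0.18. The 15 others were below the filter on both arrays, as were 9 of 10 melanocyte and hair follicle markers; Pmel, the tenth, read 6.47 on the ΔIE array and 6.24 on the F/F array. Of the keratins outside these classes, Krt23, a type I keratin, read 6.90 on the ΔIE array and 7.84 on the F/F array (-0.95), Krt80 differed by -0.37 and Krt42 by 0.24. Krt12, Krt24, Krt222, Tgm4 and Tgm6 were below the filter. Krt88 read 7.37 on both arrays, to every printed digit. It was 1 of 6 member probe sets with identical values, the other 5 being below the filter, and 1699 probe sets of the whole table had identical values.

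A list of other squamous genes, outside the rule, had 45 genes on the array. Below the filter on both arrays were 21, and 24 were kept. Of these 19 were lower, 11 at least 2-fold, and the median was -0.62; with both arrays above the filter, 18 of 22 were lower, 10 at least 2-fold. Krtdap, a secreted protein of differentiating keratinocytes, read 9.01 on the ΔIE array and 11.02 on the F/F array. Il1f9 (interleukin 36 gamma) was 3.56-fold lower, Dmkn (dermokine) 3.17-fold and Asprv1, a protease that processes filaggrin, 3.13-fold. Csta1, a cysteine protease inhibitor, was 3.09-fold lower and Spink5, a serine protease inhibitor of epidermis, 3.03-fold. Abca12, a lipid transporter of keratinocytes, went the other way, at 6.79 on the ΔIE array against 5.75, below the filter, on the F/F array. Flg (filaggrin) was among the 21 below the filter on both arrays. Smaller differences were those of Sfn (-0.58), Sbsn (-0.45) and Perp (-0.26), and Casp14 was higher, by 0.26. The 4 Lce genes kept, Lce1h, Lce1i, Lce3b and Lce3c, which encode late envelope proteins, differed by 0.35, 0.29, 0.086 and -0.14.

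Transcription factors of epidermal differentiation went both ways. Of 14 kept, 10 were lower, 6 at least 2-fold, and the median was -0.36; with both arrays above the filter, 9 of 13 were lower, 5 at least 2-fold, and the median was -0.25. Sox2, a factor of foregut and other stratified epithelia, was 3.07-fold lower, Grhl3 2.55-fold, Pitx1 2.45-fold, Zfp750 2.35-fold and Grhl1 2.03-fold, and Tfap2a read 5.77 on the ΔIE array and 6.88 on the F/F array. Of the 4 that were higher, Ovol1 differed most, at 8.09 on the ΔIE array and 7.61 on the F/F array (0.48). The others were Grhl2 (0.20), Hopx (0.19) and Klf5 (0.083). Klf4, which like Klf5 the colon epithelium also makes, differed by -0.0034.

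Hemidesmosomes fix the basal keratins to the basal lamina. Of 11 genes kept, 10 were lower and 2 at least 2-fold, with a median of -0.25. Col17a1, the transmembrane collagen of the hemidesmosome, was 3.28-fold lower and Lama3, a laminin chain, 2.41-fold. Lamb3, another laminin chain, was close to equal (-0.015), as were Cd151 (-0.052) and Plec (-0.17). The integrin genes Itga6 and Itgb4, which colonocytes also make, differed by -0.29 and -0.48, Col7a1, the anchoring fibril collagen, by -0.95, and Dst (dystonin) by 0.47.

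Of 19 genes of simple intestinal epithelium kept, 15 were higher, 1 past 2-fold, and 4 lower, none past 2-fold, and the median was 0.10. Cdx2, the intestinal homeobox factor, was 2.03-fold higher, and Cdx1, Cdh17 and Cldn3 differed by 0.42, 0.37 and 0.35. The lowest were Tjp1, a tight junction scaffold, at -0.39 and Cdh1 (E-cadherin) at -0.23. All 19 read at least 8.47 on the ΔIE array and 8.00 on the F/F array, so the labelled tissue was present on both. Intermediate filament genes other than keratins had a median of -0.0097 over 9 kept, with Vim (vimentin, of mesenchymal cells and leukocytes) lowest at -0.82.

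Other tissues moved on the same pair of arrays. Posterior Hox genes were lower in 7 of 7 kept, 6 at least 2-fold, with a median of -1.49; they read 4.71 to 7.94 on the ΔIE array and 6.47 to 10.76 on the F/F array. Hoxa13, Hoxd11 and Hoxa10 passed only through their F/F values; 4 of 4 above the filter on both arrays were lower, 3 at least 2-fold, and 3 more were below it on both. Skeletal muscle markers were higher in 8 of 8 kept, all at least 2-fold, with a median of 1.33, at 6.32 to 9.04 on the ΔIE array and 5.11 to 7.58 on the F/F array. Mb and Tnnt3 passed only through their ΔIE values; 6 of 6 above the filter on both arrays were at least 2-fold higher, with a median of 1.40, and 3 more, Actn3, Myh4 and Myh2, were below it on both, at 0.56, 0.59 and 0.13. Neutrophil markers were lower in 10 of 10, 8 at least 2-fold, with a median of -1.53, at 6.62 to 13.24 on the ΔIE array and 8.12 to 14.03 on the F/F array. Macrophage markers were lower in 10 of 10 with a median of -0.99, and B cell markers in 7 of 7 with a median of -1.73. Cr2, Blk and Pax5 passed only through their F/F values, and 4 of 4 B cell markers above the filter on both arrays were at least 2-fold lower. The part of squamous tissue in a scraping, of its position along the gut and of inflammation in the keratin and envelope differences was not tested, and with 1 array per genotype each cannot be told apart from the genotype.

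**Figure D5:**
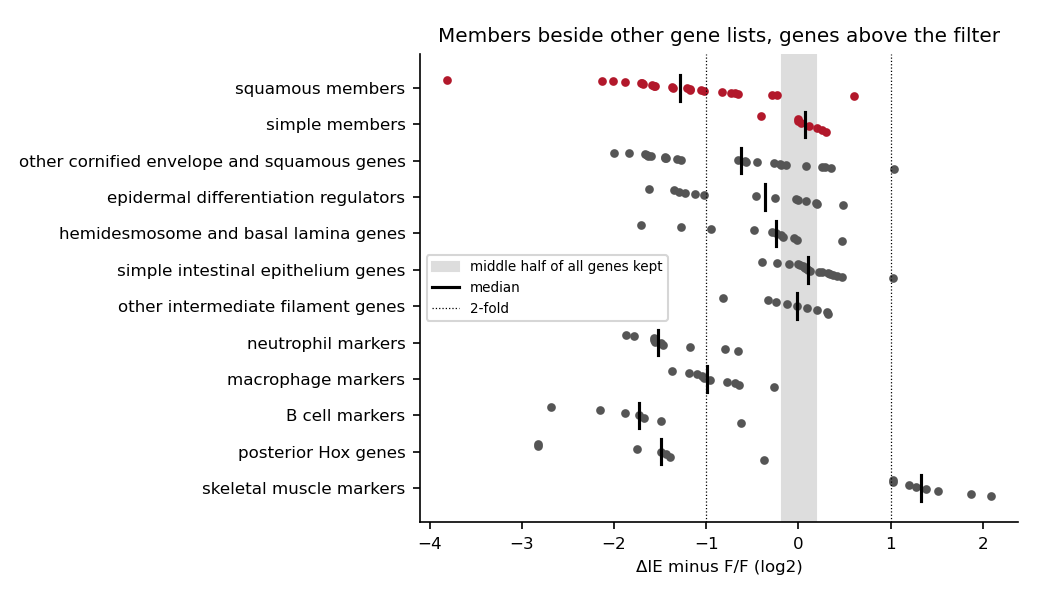
Difference (ΔIE minus F/F, log2, x axis) of each gene kept in the squamous and simple member classes (red) and in other lists (grey); black bars are medians, the grey band runs between the quartiles of all genes kept, and dotted lines mark 2-fold. Medians run from -1.73 for B cell markers to 1.33 for skeletal muscle markers, with squamous members at -1.28.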

How the data were processed

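The deposited table holds log2 expression of 45101 probe sets on 2 arrays, made by the authors with RMA in the affy package, per the submitters' processing notes; the sources used here do not give versions or which arrays were normalized together. RMA sets the distributions of the arrays equal, gives no detection call and compresses dim differences. Precision is limited by 1 array per genotype, so no test was run. Symbols came from the platform annotation: 34958 probe sets had 1, 932 several and 9211 none. Looking up Entrez IDs in GRCm38.p6 changed 0 symbols, and 204 IDs were not in that table. The 64 control probe sets stayed out. The gene value, the filter and the threshold of 2-fold are given with the results. Members, classes and lists were chosen with earlier results of these data known. Any member could be named, and from each list up to 6 of the largest differences. Flg, the Lce genes, Sfn, Sbsn, Perp, Casp14, Abca12, Ovol1, Hopx, Grhl2, Klf4, Klf5, Lamb3, Cd151 and Plec were added after their values were seen. The collapse, filter and count were tested on simulated data. Alternatives were probe set averaging, leaving out probe sets ending in _s_at or _x_at, other filters, median centring, a lowess correction (span 0.3) and thresholds of 1.5-fold and 3-fold. Python 3.11.15, numpy 2.4.6, pandas 2.3.3, statsmodels 0.14.6 and matplotlib 3.10.9 were used.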

Additional observations from a re-analysis of the deposited data

How the results depend on the processing

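The count of member genes at least 2-fold lower, 17 of 46 against 5.30% of all genes kept, was 14 of 44 (4.63% of all) with probe sets averaged, 16 of 43 (5.25%) without probe sets ending in _s_at or _x_at, 17 of 79 (3.72%) without a filter, 15 of 32 (5.08%) with a filter at the 75th percentile, 16 of 43 (4.28%) with a filter on both arrays, 16 of 46 (4.93%) after median centring and 17 of 46 (5.49%) after lowess correction. At 1.5-fold 24 were lower (10.6% of all) and 1, Lor, was higher (4.37%); at 3-fold 8 were lower (1.49%). Without a filter the squamous median was -0.73 and lay -0.80 from the simple median, the suprabasal keratins had a median of -0.064 and the stratified desmosome genes -0.31, because this adds the 13 dim squamous members, which differed by -0.67 to 0.22. With a filter at the 75th percentile the envelope transglutaminases had a median of -2.97, because Tgm5 was left out. With probe sets averaged, Tgm3 differed by -3.35, Krt17 by -0.96, Dsc3 by -0.84 and Trp63 by -0.72, so the last 3 no longer reached 2-fold; dimmer probe sets enter this average. No called difference changed sign under these alternatives. A gene difference or median was taken to have moved where it shifted by over 0.41, a limit set after seeing the data. A count was taken to have moved where it changed by over 1.5-fold or from 0. By this rule the count lower at 3-fold and the count higher at 1.5-fold moved. No paired analysis was possible because each genotype has 1 array. Signal over background limits the members below the filter, for which a small difference does not show equal expression.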
